A study of Homo sapiens with 12 samples.

Results

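Transcript levels of 10 genes for secreted inflammatory factors were measured in 3D cultures of a breast cancer cell line treated with Paclitaxel: CXCL1, CXCL2, CXCL3, CXCL8, IL6, IL11, IL1A, IL1B, LIF and CSF2. They were chosen by name, as factors that this line is known to secrete, and each matched 1 identifier in the table of read counts, so that 10 of its 63568 gene identifiers were members. RNA was sequenced from 12 samples of MDA-MB-231, a triple negative line of wild type genotype whose cells carry GFP in the nucleus, grown in droplets of Matrigel, a basement membrane gel. All samples were 1 cell line and all were taken from the gel with collagenase and dispase before the RNA was extracted. The 6 conditions had 2 samples each. C1 was untreated gel of day 2 and C2 untreated gel of day 4, and the treated gels were given Paclitaxel on day 2 at 0.0005, 0.005, 0.05 or 0.5 μM and collected on day 4. Paclitaxel binds microtubules and stabilises them, which blocks mitosis. The questions were how the levels of these transcripts changed with time in the untreated gel, and how they changed with the drug and its dose.

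Cytokines and chemokines are secreted proteins by which cells signal to one another. CXCL1, CXCL2, CXCL3 and CXCL8 are chemokines that attract neutrophils through the receptors CXCR1 and CXCR2. IL1A and IL1B are the agonists of the interleukin 1 receptor, and their signal activates NF-kB, a transcription factor that induces many cytokine genes, the genes of the chemokines above and of interleukin 1 itself among them. IL6, IL11 and LIF act through the shared receptor subunit gp130 and JAK-STAT signalling, and CSF2 (GM-CSF) is a growth factor for granulocytes and macrophages. Breast cancer cells of the mesenchymal kind are known for a high output of several of these factors.

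The 4 chemokine genes lie together on chromosome 4, as placed in GRCh37, the build of the counts. CXCL8 (ENSG00000169429) is at 74606236 to 74609433, CXCL1 (ENSG00000163739) at 74735110 to 74737025, CXCL3 (ENSG00000163734) at 74902306 to 74904524 and CXCL2 (ENSG00000081041) at 74962757 to 74964913. IL1A (ENSG00000115008, 113531502 to 113542070) and IL1B (ENSG00000125538, 113587328 to 113594393) are neighbours on chromosome 2. The others are IL6 (ENSG00000136244, chromosome 7, 22765503 to 22771621), IL11 (ENSG00000095752, chromosome 19, 55875750 to 55881831), LIF (ENSG00000128342, chromosome 22, 30636442 to 30642748) and CSF2 (ENSG00000164400, chromosome 5, 131409482 to 131411863). All are protein coding, and reads in their exons were summed per gene. CXCL1, CXCL2 and CXCL3 are near copies of one another. Of the distinct 100-base stretches of their annotated transcripts, 5.34% of those of CXCL2 and 3.27% of those of CXCL3 were identical between these genes, and 0% of those of CXCL1, so that only a few reads of CXCL2 and CXCL3 could align to both, and reads that align to several places were not counted. Exons of IL6 were overlapped by STEAP1B and IL6-AS1 and exons of LIF by LIF-AS1 and LIF-AS2, all on the opposite strand. Whether the counting used strand is not stated, so reads of these 2 members and of their antisense partners may not be told apart.

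The sequences just before the starts of 7 of the genes are shown: the 5 that held an NF-kB-like motif, and IL1B and IL11 as the members with the steepest slope on dose and the one nearest to 0. Each is the 250 bases before the gene's start in RefSeq on GRCh38.p14, read 5′ to 3′ on the gene's strand, and capitals mark matches to 3 motifs on either strand: an NF-kB-like GGNNTTTCC, the AP-1 motif TGANTCA and a C/EBP-like TTGCNNAA. The letters were chosen with these windows in view. The positions are chr4:73869143-73869392 on the plus strand for CXCL1, chr4:74099196-74099445 on the minus strand for CXCL2, chr4:74038690-74038939 on the minus strand for CXCL3, chr4:73740319-73740568 on the plus strand for CXCL8, chr7:22726950-22727199 on the plus strand for IL6, chr2:112836780-112837029 on the minus strand for IL1B and chr19:55370464-55370713 on the minus strand for IL11.
CXCL1: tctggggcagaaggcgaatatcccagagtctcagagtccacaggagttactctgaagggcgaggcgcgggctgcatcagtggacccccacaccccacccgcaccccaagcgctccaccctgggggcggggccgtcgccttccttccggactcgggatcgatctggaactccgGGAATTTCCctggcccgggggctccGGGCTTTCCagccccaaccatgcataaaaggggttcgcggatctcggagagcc
CXCL2: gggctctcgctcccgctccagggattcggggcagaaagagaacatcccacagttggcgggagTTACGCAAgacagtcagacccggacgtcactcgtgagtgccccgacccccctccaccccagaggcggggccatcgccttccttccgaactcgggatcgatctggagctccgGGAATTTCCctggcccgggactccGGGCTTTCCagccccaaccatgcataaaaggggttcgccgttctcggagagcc
CXCL3: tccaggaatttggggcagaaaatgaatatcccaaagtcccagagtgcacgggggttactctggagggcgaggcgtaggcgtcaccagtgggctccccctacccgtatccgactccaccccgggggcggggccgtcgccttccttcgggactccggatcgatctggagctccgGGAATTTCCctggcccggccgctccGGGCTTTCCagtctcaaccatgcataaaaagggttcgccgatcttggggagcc
CXCL8: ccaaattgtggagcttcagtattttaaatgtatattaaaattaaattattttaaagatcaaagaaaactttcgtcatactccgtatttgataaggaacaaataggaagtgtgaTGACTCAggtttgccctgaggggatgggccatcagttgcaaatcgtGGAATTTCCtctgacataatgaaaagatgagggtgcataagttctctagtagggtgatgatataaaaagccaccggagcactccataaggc
IL6: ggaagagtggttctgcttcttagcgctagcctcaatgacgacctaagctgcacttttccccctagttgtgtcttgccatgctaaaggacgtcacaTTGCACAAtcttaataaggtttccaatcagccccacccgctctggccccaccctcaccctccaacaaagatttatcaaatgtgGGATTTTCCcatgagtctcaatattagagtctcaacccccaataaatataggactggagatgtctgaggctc
IL1B: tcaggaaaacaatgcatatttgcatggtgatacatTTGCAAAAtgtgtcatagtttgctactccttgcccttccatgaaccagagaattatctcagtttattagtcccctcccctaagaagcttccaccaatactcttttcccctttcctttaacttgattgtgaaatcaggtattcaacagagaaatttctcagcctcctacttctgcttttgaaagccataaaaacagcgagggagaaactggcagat
IL11: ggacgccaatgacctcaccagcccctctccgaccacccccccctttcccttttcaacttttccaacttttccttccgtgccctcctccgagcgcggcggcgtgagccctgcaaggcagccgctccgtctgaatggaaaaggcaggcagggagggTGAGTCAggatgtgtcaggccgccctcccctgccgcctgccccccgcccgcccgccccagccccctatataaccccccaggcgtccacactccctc

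RefSeq windows that also take in the first 50 bases of the gene, 300 bases in all, were found for 9 of the 10 members, LIF being the exception. The NF-kB-like motif was in 5 of these 9, against 6.26% of 35116 windows of all genes. CXCL1 and CXCL3 each held it with its first base at -78 and again at -53, counted from the gene's start, and CXCL2 at -77 and -53. CXCL8 held it once at -91 and IL6 once at -72. The AP-1 motif was in CXCL8, IL11 and IL1A (7.71% of all windows), and the C/EBP-like motif in CXCL2, IL6 and IL1B (10.5% of all windows). No match overlapped another, and the window of CSF2 held none of the 3. The windows of CXCL1, CXCL2 and CXCL3 were 83.6% to 87.0% identical in pairs, and those of CXCL8 and each of these 54.1% to 58.5%. A match is a match of letters only.

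**Figure D1:**
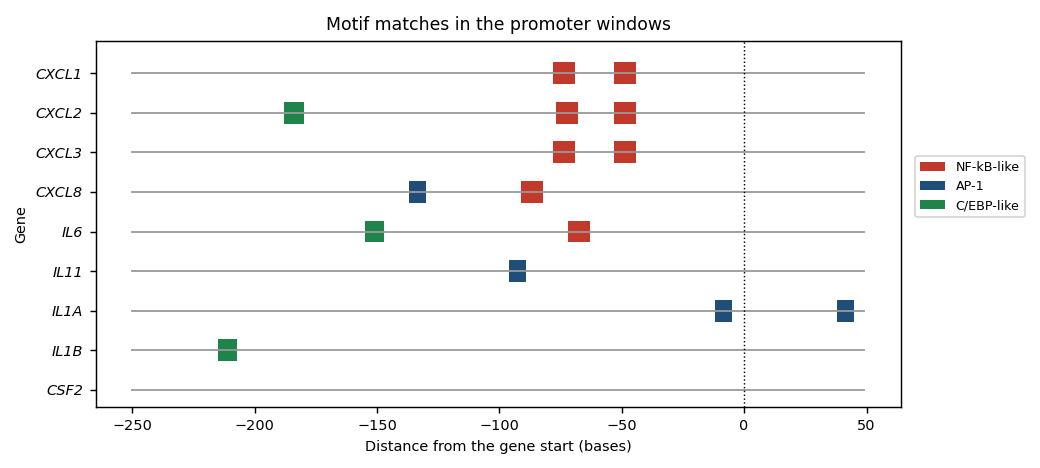
Positions of the 3 motifs (coloured boxes) in the promoter windows of 9 genes, with the distance from the gene start in bases on the horizontal axis. The NF-kB-like motif is seen at -91 or nearer to the start in CXCL1, CXCL2, CXCL3, CXCL8 and IL6 and in none of the other 4.

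The samples held 38380629 to 79169121 counts each, the smallest being replicate 2 of C1. All 10 markers of the line were expressed, with a summed level of 3488 to 5585 CPM (a gene's counts scaled to a fixed library total), ESR1 and PGR did not exceed 0.460 and 0.0867 CPM, and ERBB2 was at 26.6 to 52.4 CPM. Treated against untreated, 2 of the 10 markers of the line were called lower and 0 higher, where 11.3% and 13.1% of all genes tested were. The 12 markers of leukocytes and macrophages, cells that also make these cytokines, summed to 1.31 to 1.99 CPM in C1, 1.45 to 1.47 in C2, 3.08 to 3.44 at 0.0005 μM, 4.05 to 4.67 at 0.005 μM, 5.31 to 5.96 at 0.05 μM and 4.70 to 5.08 at 0.5 μM. Of the 6 that could be tested, 5 were called higher in treated than in untreated samples, where 13.1% of all genes tested were: ITGAM (log2 4.81, from condition means of at most 0.0542 CPM untreated to 0.750 to 2.20 CPM treated), PTPRC (1.43), FCER1G (1.21), CD14 (1.17) and CSF1R (0.99). ITGAM, PTPRC and FCER1G passed the filter on low counts only through treated samples. None of the 12 was at 0 in every sample. PTPRC (CD45), which defines leukocytes, did not exceed 0.281 CPM, and LYZ, AIF1, TYROBP, CD3E and HBB did not exceed 0.0850 CPM. The summed levels were 10.5 to 23.7 CPM for the 10 fibroblast markers and 0.746 to 3.51 CPM for the 7 endothelial markers matched, and both lists were highest at 0.05 μM. The endothelial sum was 0.746 to 1.78 CPM in untreated and 2.32 to 3.51 CPM in treated samples. Treated against untreated, 3 of 8 tested fibroblast markers (COL3A1, PDGFRA and FAP) and 2 of 4 tested endothelial markers (KDR and TEK) were called higher and 0 lower, against the same 13.1% and 11.3%. PDGFRA, FAP and TEK passed the filter only through treated samples. The part of these markers' genes in the results was not tested.

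All 10 genes were expressed in every sample, from 98 counts of IL1A in a C1 sample to 178660 counts of CXCL8 in a sample at 0.0005 μM, and all passed the filter on low counts. Per kilobase of exon, CXCL8 had the highest level of the 10 in each condition. In C2 it stood at 375 ± 83.2 CPM per kilobase (mean ± SD, n = 2, as for all means below), followed by CXCL2 at 66.7 ± 5.64, CSF2 at 54.6 ± 8.5, LIF at 35.2 ± 0.765 and CXCL1 at 29.2 ± 2.00. IL11 was at 16.3 ± 0.869 CPM per kilobase, and CXCL3, IL1B, IL6 and IL1A at 6.63, 5.12, 3.92 and 2.92. By the longest annotated transcript in place of all exons IL1B was at 9.53 ± 2.68 and CXCL3 at 8.96 ± 0.485 CPM per kilobase, so that these neighbours changed places, while the order of the other 8 was kept.

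From C1 to C2, the 2 days of untreated gel, 6 members rose: CXCL1, CXCL2, CXCL3, IL6, IL1B and CSF2. This was 6 of 10, where 0.321% of 25249 genes tested were called higher and 0.325% in either direction (edgeR's quasi-likelihood test, Benjamini-Hochberg adjusted p under 0.05). As in all bulk RNA, more cells that make a transcript and more of it per cell cannot be told apart. CXCL2 was at 8.54 and 15.9 CPM on day 2 and at 98.8 and 87.7 CPM on day 4, CXCL1 at 5.01 and 8.68 against 37.9 and 41.7, and CXCL3 at 1.97 and 3.10 against 14.1 and 15.3. The chemokines thus rose by 2.94 (SE 0.24), 2.56 (SE 0.21) and 2.57 (SE 0.21) on the log2 scale, 5.89-fold or more, with adjusted p = 0.000214 for each. IL1B rose 4.29-fold (log2 2.10, SE 0.22, adjusted p = 0.00146), IL6 2.94-fold (1.55, SE 0.16, adjusted p = 0.00146) and CSF2 3.19-fold (1.67, SE 0.25, adjusted p = 0.0109).

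CXCL8 and IL1A were also higher in both day 4 samples than in both day 2 samples, but their adjusted p-values by edgeR were 0.103 and 0.0935 (log2 2.10 and 1.46). DESeq2 called both (adjusted p = 0.0118 and 0.000767), where it called 274 of all genes and edgeR 82. The change of CXCL8 was 1.42 without replicate 1 of C1 and 3.43 without replicate 2, and that of IL1A 0.92 and 2.12. For CXCL8 the day 2 samples lay far apart, at 92.0 and 362 CPM, against 817 and 1122 CPM on day 4. Replicate 2 of C1 had the higher level of the 2 for 8 of the members, by 1.17-fold (IL6) to 3.93-fold (CXCL8), and the lower level for IL11 and LIF. IL11 went the other way with time, from 78.0 and 55.6 CPM to 42.0 and 45.3 (log2 -0.61, SE 0.17, adjusted p = 0.243), and LIF was at 129.5 and 105 CPM against 138 and 134 (0.22, SE 0.16, adjusted p = 0.645). DESeq2 called the fall of IL11 (log2 -0.64, adjusted p = 0.0367). Over the samples left out in turn the change of IL11 ran from -0.80 to -0.35. The median change of the 10 members was 1.88 on the log2 scale, and that of all genes tested -0.023. In a fit of the 4 untreated samples alone edgeR called 0 genes of any kind, while 9 members had an unadjusted p under 0.05, and CSF2 was not called without replicate 2 of C2 (adjusted p = 0.085). Its change was 2.27 on the log2 scale without replicate 2 of C1 and 1.25 without replicate 1 of C1.

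**Figure D2:**
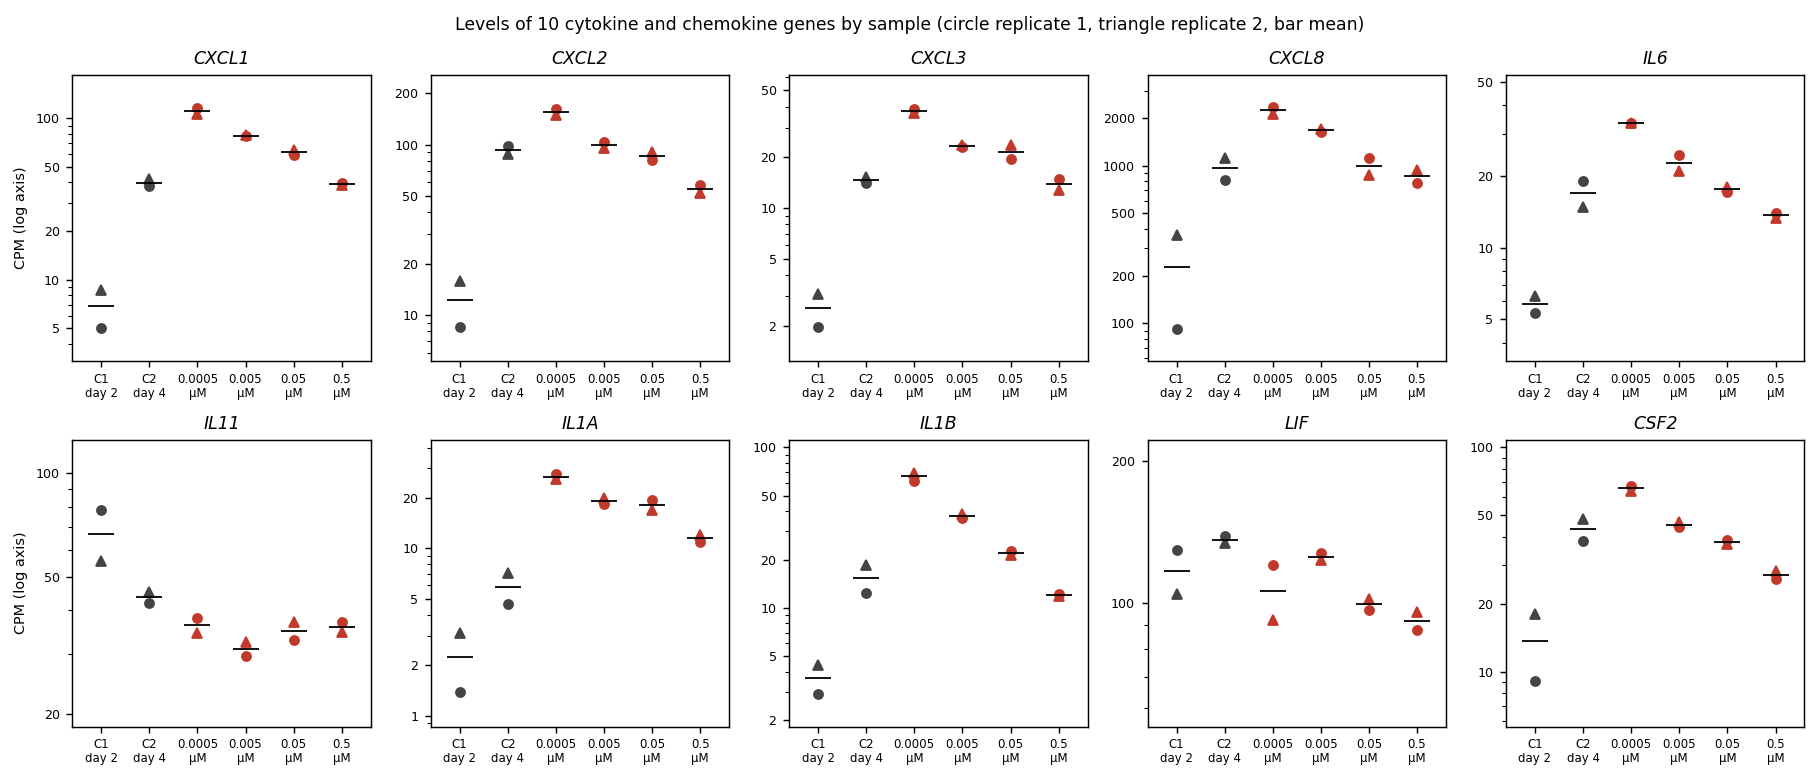
Level of each of the 10 genes (CPM, log axis) in each of the 12 samples, by condition; circles and triangles are replicates 1 and 2, bars the means of the 2, grey untreated and red treated. All genes but IL11 and LIF are lowest in C1 and highest at 0.0005 μM, and these 2 are highest in C1 and in C2.

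Under the drug the highest levels of 8 members were found at the lowest dose, 0.0005 μM, and their levels fell from there along the doses. At 0.0005 μM against C2, 5 of the 10 were called and all 5 were higher: CXCL1, CXCL3, IL6, IL1A and IL1B, where 2.34% of the genes tested were called and 1.87% were higher. The median change of the 10 was 1.10 on the log2 scale, against -0.011 for all genes tested. None of the 10 had overlapping samples between these groups, as 53% of the genes tested had none, and IL11 and LIF were lower at 0.0005 μM and the other 8 higher. CXCL2, CXCL8 and CSF2 had log2 changes of 0.73, 1.22 and 0.61 with adjusted p = 0.114, 0.183 and 0.219. With either replicate of C1 left out, the log2 changes of these 3 were 0.73 to 0.74, 1.21 to 1.22 and 0.61. CXCL3 was not called without replicate 1 of C2 (adjusted p = 0.0503), nor IL6 without replicate 2 of C2 (adjusted p = 0.0889) or either replicate at 0.0005 μM (adjusted p = 0.0598 and 0.0649).

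The neutrophil chemokines differed among themselves in where they stood against C2. CXCL1 was at 116 and 106 CPM at 0.0005 μM, 77.4 and 78.3 at 0.005 μM, 58.8 and 63.9 at 0.05 μM and 39.7 and 38.8 at 0.5 μM, so that it ended within the range of C2 (37.9 and 41.7). Its changes from C2 were 1.48 (SE 0.20, adjusted p = 0.00199), 0.97 (SE 0.20, adjusted p = 0.0223), 0.62 (SE 0.20, adjusted p = 0.0737) and -0.019 (SE 0.20, adjusted p = 0.966) on the log2 scale. CXCL3 was in the same order along the doses, from 38.7 and 36.4 CPM at 0.0005 μM through 23.1 and 23.5 and then 19.6 and 23.5 to 14.9 and 12.7 at 0.5 μM, and edgeR called it at the lowest dose (1.35, SE 0.19, adjusted p = 0.00232) and not at the others in the model of all 12 samples. DESeq2 called it at 0.005 μM too (adjusted p = 0.0235). CXCL2 was at 98.8 and 87.7 CPM in C2 and reached 162 and 149 CPM at 0.0005 μM and then 103 and 95.0, 81.1 and 90.8, and 57.6 and 51.8 CPM. At 0.5 μM both of its samples were below both C2 samples (log2 -0.77, SE 0.22, adjusted p = 0.0618). CXCL8 was at 2375 and 2135 CPM at 0.0005 μM and at 1648 and 1722 CPM at 0.005 μM, above both C2 samples at each of these doses. It was at 1127 and 876 and at 775 and 939 CPM at 0.05 and 0.5 μM, where its samples overlapped those of C2. In the model of all 12 samples edgeR called no change of CXCL8 from C2, with standard errors of 0.43 to 0.44 on the log2 scale that were the widest of the 10 genes. With either replicate of C1 left out its log2 change was 1.21 to 1.22 at 0.0005 μM and 0.79 to 0.81 at 0.005 μM.

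The 2 interleukin 1 genes had the largest changes at the lowest dose. IL1A was at 4.65 and 7.12 CPM in C2 and at 27.8 and 25.9 CPM at 0.0005 μM, a 4.56-fold rise (log2 2.19, SE 0.28, adjusted p = 0.00147). It stayed above C2 at every dose, with 18.4 and 20.0 CPM at 0.005 μM, 19.3 and 16.9 at 0.05 μM and 11.0 and 12 at 0.5 μM. The corresponding changes were 1.71 (adjusted p = 0.00753), 1.62 (adjusted p = 0.00566) and 0.96 (SE 0.28, adjusted p = 0.0626), and IL1A was the 1 member that edgeR called at 0.05 μM in the model of all 12 samples. IL1B rose 4.28-fold at 0.0005 μM (log2 2.10, SE 0.21, adjusted p = 0.00027), from 12.3 and 18.5 CPM to 62.2 and 69.8. At the higher doses it was at 36.1 and 38.4, 22.5 and 21.4, and 12.2 and 11.9 CPM. At 0.005 μM it was still higher than in C2 (1.27, SE 0.21, adjusted p = 0.00711), while at 0.5 μM both samples lay just below both C2 samples (-0.35, SE 0.21, adjusted p = 0.334).

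Of the 3 gp130 cytokines, IL6 was called by edgeR at the lowest dose in the model of all 12 samples, and IL11 and LIF at none. IL6 was at 19.1 and 14.8 CPM in C2 and at 33.5 CPM in both samples at 0.0005 μM (log2 0.98, SE 0.16, adjusted p = 0.00628), then at 24.5 and 21.1, 17.2 and 18.1, and 14 and 13.4 CPM. IL11 was below C2 in both samples at every dose, at 37.9 and 34.5, 29.5 and 32.5, 32.8 and 36.9, and 37 and 34.6 CPM, with no order along the doses and changes of -0.49 to -0.27 that were not called. LIF was at 120.4 and 92.0 CPM at 0.0005 μM, 127 and 124 at 0.005 μM, 96.9 and 102 at 0.05 μM and 87.9 and 95.9 at 0.5 μM, all below the C2 samples. Its largest change from C2 was at 0.5 μM (-0.57, SE 0.16, adjusted p = 0.0542). It was called there by DESeq2 (adjusted p = 0.0121). With either replicate of C1 left out the change of LIF there was -0.58, and that of IL11 at 0.005 μM was -0.50 and -0.48. Between the condition with its highest and the one with its lowest mean LIF differed 1.48-fold and IL11 2.15-fold, against 4.83-fold (CSF2) to 18.1-fold (IL1B) for the other 8.

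CSF2, the colony-stimulating factor of the set, was at 38.3 and 47.8 CPM in C2 and at 67.4 and 64.0 CPM at 0.0005 μM. It was at 44 and 46.4 CPM at 0.005 μM and 38.7 and 37.1 CPM at 0.05 μM, which overlapped C2, and at 25.8 and 28.1 CPM at 0.5 μM, below both C2 samples (log2 -0.67, SE 0.24, adjusted p = 0.121). CSF2 and CXCL2 were thus the members whose levels at 0.5 μM lay furthest below C2 among those that were highest at 0.0005 μM, at 62.6% and 58.7% of its mean.

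In the model of all 12 samples edgeR called fewer members against C2 with each step of dose, while it called 592, 827, 2100 and 1596 of all genes. DESeq2 called 6, 4, 2 and 3 members from the lowest dose to the highest, and 1173, 1362, 2666 and 2301 of all genes. At 0.005 μM 3 members were called, CXCL1, IL1A and IL1B, all higher, against 3.28% of the genes tested and 2.5% that were higher. Each of these 3 calls was lost in some of the fits with 1 sample of C2 or of 0.005 μM left out. With each of the 12 samples left out in turn, the log2 change of CXCL1 at 0.005 μM ran from 0.897 to 1.028. That of IL1A ran from 1.428 to 2.033 and that of IL1B from 1.009 to 1.582. At 0.05 μM edgeR called 1 member, higher, against 8.32% of the genes tested and 5.09% that were higher, and DESeq2 called 2, CXCL1 in addition (adjusted p = 0.0354). IL1A, the 1 member that edgeR called, was not called without replicate 1 of C2, where its change was 1.34 instead of 1.62 on the log2 scale. At 0.5 μM edgeR called 0 of the 10 against 6.32% of the genes tested. The unadjusted p was under 0.05 for 4 (CSF2, CXCL2 and LIF lower, IL1A higher), and DESeq2 called 3 (CXCL2, IL1A and LIF). With either replicate of C1 left out the log2 changes of CSF2, CXCL2, LIF and IL1A were -0.68, -0.78, -0.58 and 0.95 to 0.96. The median change of the 10 was 0.54, 0.051 and -0.30 on the log2 scale at 0.005, 0.05 and 0.5 μM, and that of all genes 0.036, -0.011 and 0.036. The 4 comparisons share the 2 samples of C2.

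**Figure D3:**
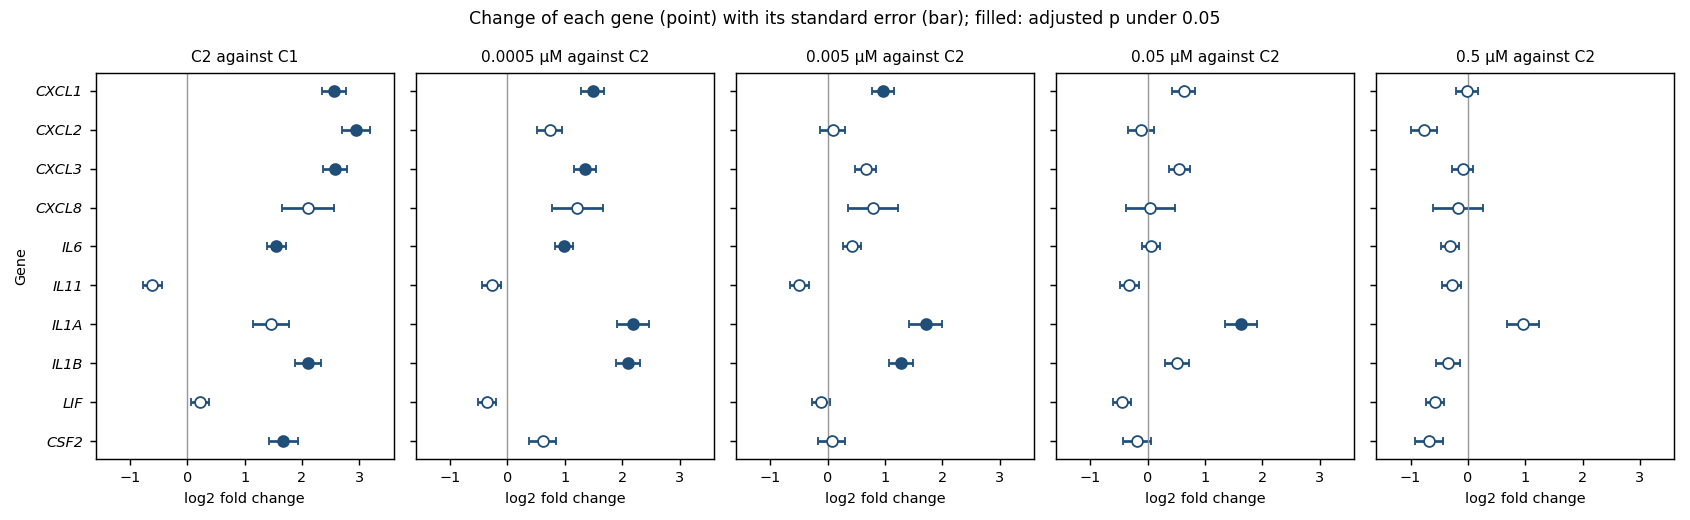
Log2 fold change of each of the 10 genes with its standard error (bar) in 5 comparisons; filled points have an adjusted p under 0.05 by edgeR's quasi-likelihood test. The number of filled points is 6 for C2 against C1 and 5, 3, 1 and 0 for the 4 doses against C2, and IL1A is the 1 gene to the right of 0 at every dose.

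Within the 8 treated samples the fall with dose was seen in most of the set. A slope on log10 dose, to which the untreated samples do not contribute, was negative and called for 8 of the 10 members, where 3.06% of the genes tested were called and 2.04% fell (edgeR's quasi-likelihood test). IL1B had the steepest slope, falling by 0.81 on the log2 scale per 10-fold dose (SE 0.04, adjusted p = 1.22e-08). The slopes of CXCL8, CXCL1, CXCL2, CXCL3, IL6, CSF2 and IL1A were -0.49, -0.48, -0.47, -0.44, -0.42, -0.41 and -0.37, with standard errors of 0.04 to 0.06 and adjusted p-values of 4.71e-06 (CXCL1) to 0.000536 (IL1A). LIF had a slope of -0.099 (SE 0.05, adjusted p = 0.335) and IL11 one of 0.011 (SE 0.04, adjusted p = 0.917). These 8 calls were kept when any 1 of the 8 samples was left out and under each of the other 7 settings tried.

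**Figure D4:**
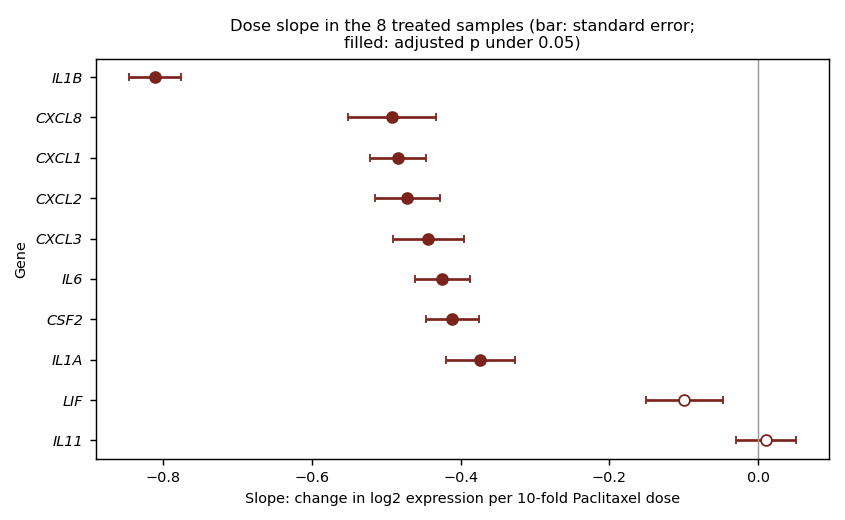
Slope of each gene on dose in the 8 treated samples, as the change in log2 expression per 10-fold dose, with its standard error; filled points have an adjusted p under 0.05. IL1B is apart from the others at -0.81, 7 genes lie between -0.49 and -0.37, and LIF and IL11 lie nearest to 0.

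Step by step, the mean of these 8 genes was lower at each of the 3 steps of dose, as it was for 5.71% of the genes tested. For CXCL1, CXCL2, IL6, IL1B and CSF2 the samples of neighbouring doses did not overlap at any step, which was so for 0.749% of the genes tested. CXCL3 and IL1A overlapped between 0.005 and 0.05 μM, and CXCL8 between 0.05 and 0.5 μM. At 0.5 μM IL1B was left with 18.3% of its mean level at 0.0005 μM, and the other 7 with 35.2% (CXCL2) to 42.7% (IL1A).

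The lowest and the highest dose were also compared directly, a comparison added after the counts were seen. At 0.5 against 0.0005 μM 6 members were lower and called, CXCL1, CXCL2, CXCL3, IL6, IL1B and CSF2, where 0.412% of the genes tested were called and 0.337% were lower. The largest difference was that of IL1B, 5.47-fold (log2 -2.45, SE 0.21, adjusted p = 0.000387), followed by CXCL2 (-1.50, SE 0.23, adjusted p = 0.0145) and CXCL1 (-1.50, SE 0.20, adjusted p = 0.00723). CXCL3, IL6 and CSF2 differed by -1.44, -1.29 and -1.29, with adjusted p = 0.00639, 0.00438 and 0.0481. CXCL8 and IL1A were lower in both samples as well (-1.40 and -1.23), but with adjusted p = 0.188 and 0.0913. With any 1 sample of these 2 doses left out, 1 of the 10 was called, IL1B. CSF2 was also not called with 1 sample of C2, of 0.005 μM or of 0.05 μM left out (adjusted p = 0.0577 to 0.0983). IL11 (-0.016, SE 0.17) and LIF (-0.21, SE 0.16) had overlapping samples.

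When all 8 treated samples were set against the 4 untreated samples of both days, 5 members were called higher and 1 lower. This was 6 of 10, where 24.4% of the genes tested were called, 13.1% higher and 11.3% lower. IL1A (4.65-fold, log2 2.22, SE 0.34, adjusted p = 0.000254) ranged from 11.0 to 27.8 CPM in the treated and from 1.38 to 7.12 CPM in the untreated samples, without overlap. IL11 was lower in each treated sample than in each untreated one, with at most 37.9 against at least 42.0 CPM (log2 -0.68, SE 0.13, adjusted p = 0.00153). Samples without overlap were found for these 2 members and for 13.2% of the genes tested. CXCL1 (1.63), CXCL3 (1.47), IL1B (1.84) and IL6 (0.94) were called with adjusted p = 0.0263 to 0.0419, and their samples overlapped. These 4 were not called in every setting. Against the 2 untreated samples of day 4 alone their changes were 0.87, 0.72, 1.16 and 0.38 and 2 members were called, IL1A and IL11. Without a filter on low counts, where the changes hardly moved, the adjusted p-values of the 4 were 0.11 to 0.178. The count was 2 without replicate 1 of C1 and 3 without its replicate 2, and 2 with either sample at 0.005 μM left out. With other single samples left out it was 4 to 8, and IL1A and IL11 were called each time. As a contrast in the model of 6 conditions it was 9, with CXCL2, CXCL8 and CSF2 called in addition (adjusted p = 4.43e-05, 0.00266 and 0.00313). Treatment and time cannot be told apart against C1, whose samples were taken before the treated ones.

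Across the 12 samples the 8 members that fell with dose went up and down together. Their log2 CPM had Pearson correlations of 0.853 to 0.997 over the 28 pairs, highest for CXCL1 and CXCL3. IL11 was inversely related to each of the 8 (r from -0.908 to -0.779), and LIF had r from -0.358 to -0.0034. The 12 points of each pair share the libraries, their depth and the 6 conditions, and the values are given as a description. Among 11090 named genes with a mean of at least 5 CPM, those with the highest r over the 12 samples were listed for each member. CXCL1 was most like CXCL3, TNFRSF9 and ICAM1 (r = 0.997, 0.990 and 0.976), CXCL3 like CXCL1, TNFRSF9 and CEBPD, and CXCL2 like EFNA1, CXCL3 and SPNS2. IL6 was most like PTX3, CXCL3 and CXCL1, IL1B like PTX3 (r = 0.992), OPTN and MMP10, and CSF2 like CXCL2, CXCL8 and EFNA1. CXCL8 was most like MAP3K7CL, OPTN and CSF2, and IL1A like CCL20, IL32 and KLHL24 (r = 0.990, 0.986 and 0.981). The genes nearest to IL11 were RRM2 (r = 0.976), CSTF2T and UBE3A, and those nearest to LIF were ABCA7 (r = 0.947), LIMD1 and ROBO3.

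Several other chemokine genes were also higher in the treated samples. Of 19 other chemokine ligands listed, 17 were matched and 11 could be tested. Treated against untreated, 8 of the 11 were called higher and 0 lower, where 13.1% and 11.3% of all genes tested were. PF4, CXCL5, CXCL10, CXCL11 and CCL5 passed the filter on low counts only through treated samples, so that they had to be higher there. Of the other 6, 3 were called higher, where 9.3% of all genes that pass the filter in untreated samples were. CCL20, which attracts dendritic cells and lymphocytes, had means of 0.369 and 2.7 CPM in C1 and C2 and of 28.4, 17.7, 9.71 and 5.74 CPM from the lowest to the highest dose (treated against untreated log2 3.31, SE 0.68, adjusted p = 0.00314). CXCL5 and CCL5 were called too, but their means did not exceed 0.527 and 0.667 CPM in any condition. At 0.0005, 0.005 and 0.05 μM against C2, 6, 6 and 6 of the 11 were called higher and 0, 0 and 1 lower. Of all genes tested, 1.87%, 2.5% and 5.09% were higher. Along the doses 4 of the 11 fell and 0 rose, where 2.04% of all genes fell. The 5 genes that passed the filter only through treated samples are among the 11. At 0.5 μM against C2, CXCL11 was the 1 ligand called (1.82, SE 0.42, adjusted p = 0.0279). CCL2, the ligand that attracts monocytes, was at 399 to 854 CPM in the condition means. It was lower at 0.05 μM than in C2 (-0.72, SE 0.20, adjusted p = 0.0463) and was not called at the other doses.

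Among 24 tested of 28 other interleukins and cytokines, 12 were called higher and 1 lower in the treated samples, against the same 13.1% and 11.3% of all genes. IL20, TSLP, LTA, IL34 and OSM passed the filter only through treated samples, and of the other 19, 7 were called higher and 1 lower, against 9.3% and 13.3%. IL24 differed from the members in its course: its means were 0.952 and 0.642 CPM in C1 and C2 and 10.3, 8.01, 9.06 and 8.49 CPM at the 4 doses, so that it was above C2 at every dose without an order among them (0.5 μM against C2 log2 3.71, SE 0.22, adjusted p = 7.6e-06). CSF3 (G-CSF), by contrast, had means of 0.459 CPM in C2 and 4.84, 3.41, 2.29 and 1.10 CPM along the doses (treated against untreated 3.25, adjusted p = 0.000236). TSLP was called higher in the treated samples at means of at most 0.350 CPM, and IL18 was lower (-0.41, SE 0.11, adjusted p = 0.0133). OSM and LTA were called higher at 0.5 μM against C2, at means of 0.297 and 0.570 CPM, and TNFSF9 lower (-0.87, SE 0.21, adjusted p = 0.0316). Along the doses, 8 of the 24 fell and 0 rose, where 2.04% of all genes fell.

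**Figure D5:**
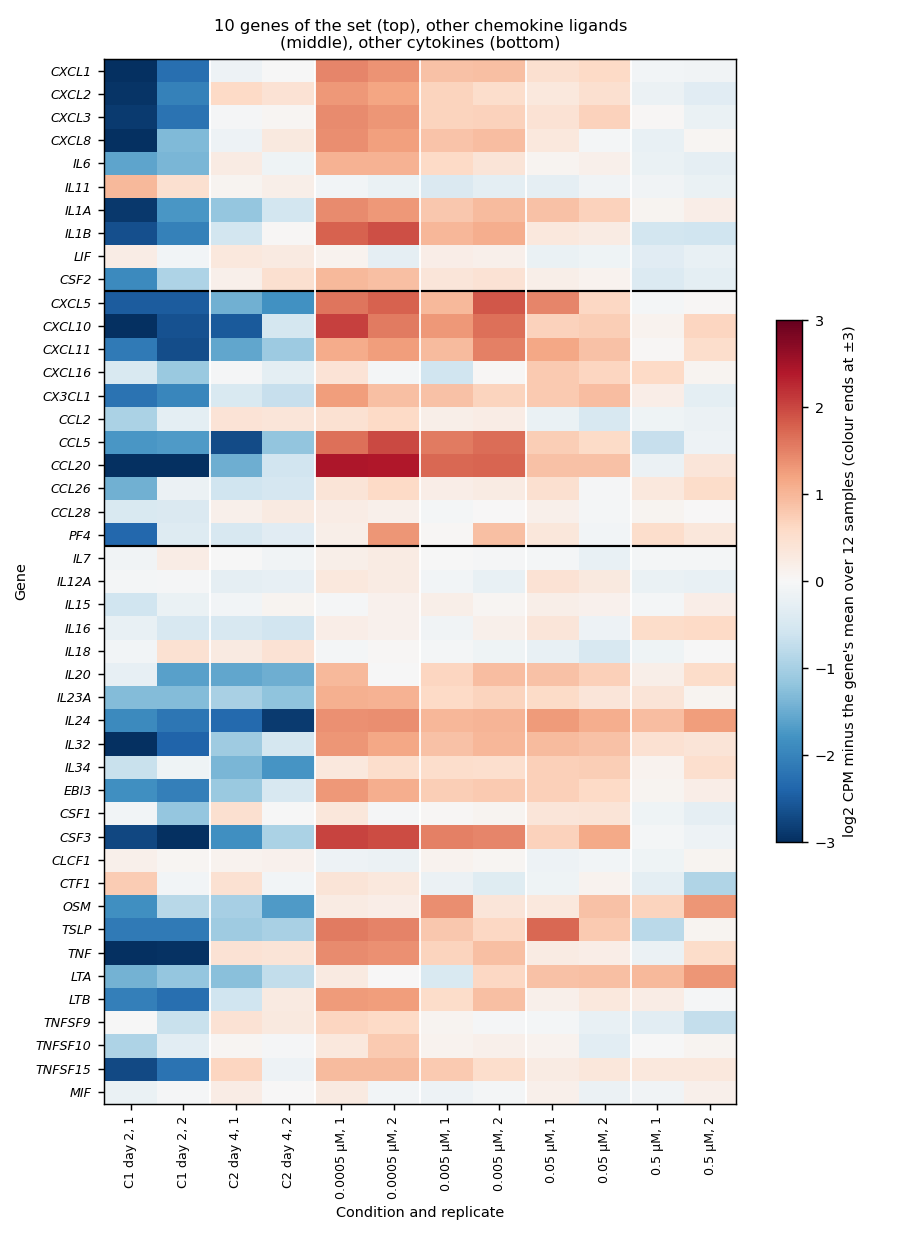
Level of the 10 genes (top), 11 other chemokine ligands (middle) and 24 other cytokines (bottom) in each of the 12 samples, as log2 CPM minus the gene's mean over the samples; red is above and blue below that mean, and the colour scale ends at ±3. CCL20 and CSF3 are darkest red at 0.0005 μM, the dose at which the 8 falling genes of the set are highest too, while IL24 is red at all 4 doses.

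The genes of the members' receptors and antagonists differed in direction. Of 13 receptor and antagonist genes, 10 were tested, and the receptors of the chemokines, CXCR1 and CXCR2, had condition means of at most 0.0242 CPM, too low to be tested. IL6ST, which encodes gp130, was at 264 to 414 CPM in the condition means. Treated against untreated, 5 of the 10 were called higher and 1 lower, where 24.4% of all genes were called, the lower one being IL6R (-0.50, SE 0.14, adjusted p = 0.0149), and CSF2RB, IL1R2 and IL1RN, which passed the filter only through treated samples, were called higher at means of at most 0.519 CPM. Of the other 7, 2 were higher and 1 lower. At 0.5 μM against C2, IL6R was lower (-0.94, SE 0.20, adjusted p = 0.0195) and CSF2RB higher at 0.260 CPM.

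Of the 17 NF-kB subunits and feedback genes, all tested, 5 rose between C1 and C2 and 0 fell, where 0.321% of all genes rose, and 3 fell and 0 rose along the doses, where 2.04% fell. Against C2, 3, 2, 3 and 1 of the 17 were called higher from the lowest dose to the highest, and 0, 0, 1 and 2 lower. Of all genes 2.34%, 3.28%, 8.32% and 6.32% were called. Treated against untreated, 5 of the 17 were higher and 0 lower, where 24.4% of all genes tested were called and 13.1% were higher. The share called in either direction was near the background, while all 5 were higher. RELB, a subunit, was higher in treated samples (1.14, SE 0.22, adjusted p = 0.00161), as were TRAF1 (1.24) and the inhibitor NFKBIE (1.13). At 0.5 μM against C2 the feedback inhibitor NFKBIA was lower (-0.81, SE 0.14, adjusted p = 0.00695), as was NFKBIZ (-0.85, SE 0.18, adjusted p = 0.0195), while NFKBIE was higher (0.82, SE 0.14, adjusted p = 0.00651). Of 14 AP-1, C/EBP and related factors, 1 was called higher and 4 lower at this dose, where 6.32% of all genes were called. EGR1 was higher (1.34, SE 0.25) and FOSB (-3.39), ATF3 (-1.62) and JUND (-1.35) were lower, with adjusted p = 0.00986 for EGR1 and at most 0.00556 for the others. Treated against untreated, 3 of the 14 were higher and 5 lower, where 24.4% of all genes were called. EGR1, CEBPD and CEBPB were higher (1.41, 0.87 and 0.46), and FOSB, ATF3 and JUND were among the lower ones (-2.00, -0.85 and -0.62).

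Of 14 regulators of cytokine mRNA stability none was called by edgeR against C2 at any dose, with 1, 1, 2 and 1 at an unadjusted p under 0.05 from the lowest dose to the highest, where 2.34%, 3.28%, 8.32% and 6.32% of all genes were called. Treated against untreated, 1 was higher and 4 lower, where 13.1% and 11.3% of all genes were. ZC3H12A, a nuclease that degrades IL6 mRNA, was higher (0.96, SE 0.23, adjusted p = 0.00633), and HNRNPD, ELAVL1 and TIA1 were lower (-0.57, -0.48 and -0.37). Of 13 tested genes of interleukin 1 processing and release, edgeR called 3 at 0.0005 μM (CASP1, NLRP3 and AIM2), 3 at 0.005 μM (CASP1, NLRC4 and AIM2) and 3 at 0.05 μM (NLRC4, AIM2 and, lower, GSDME) against C2, and at 0.5 μM NLRC4 alone. The shares of all genes called were the same 2.34%, 3.28%, 8.32% and 6.32%. AIM2 and PYCARD passed the filter on low counts only through treated samples, so that they had to be higher there. Treated against untreated, 5 were higher and 3 lower, where 13.1% and 11.3% of all genes were, and of the 11 that pass the filter in untreated samples 3 were higher and 3 lower. NLRC4, an inflammasome sensor, was higher (1.74, SE 0.27, adjusted p = 0.000257) at condition means of 0.256 to 1.07 CPM, AIM2 and PYCARD at means of at most 0.556 and 0.144 CPM, and CAPN2, GSDME and GSDMD were lower by -0.43, -0.38 and -0.30. Of 14 genes of gp130 and JAK-STAT signalling, 1 was higher (CISH, 0.87) and 3 lower in the treated samples (STAT5B, PTPN11 and TYK2, -0.48, -0.45 and -0.37), a share called near the 24.4% of all genes, and STAT5B was the 1 called at 0.5 μM against C2 (-0.63, SE 0.16, adjusted p = 0.0374).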

How the data were processed

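RNA was measured in 12 libraries, 2 per condition. The deposited values are whole-number read counts per Ensembl gene, neither normalized nor pooled. The authors trimmed the paired reads (Trimmomatic 0.39, with quality reports from FastQC 0.11.9), aligned them to GRCh37 with STAR 2.7.5 and counted uniquely aligned reads in exons with Rsubread. The strand setting and the annotation release are not given in the sources used here. Each sample's own table held the same counts as the series table. Library sums, which are the depth, were 38380629 to 79169121 counts. The study calls its replicates biological, and p-values measure the spread between these samples.

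Symbols were found for 55665 of 63568 identifiers. Counts were scaled by TMM and filtered by filterByExpr on the 6 conditions, which left 25249 genes, 15.1% of which reach its minimum of 0.152 CPM in 2 samples only with the treated samples included. They were tested with edgeR 4.0.16 in R 4.3.3 (quasi-likelihood F test, robust, two-sided, Benjamini-Hochberg adjustment over all tested genes, called at an adjusted p under 0.05). Comparisons of 2 conditions came from 1 model of all 12 samples with 6 residual degrees of freedom. Treated against untreated was a fit of 8 against 4 samples, and the dose trend a regression on log10 dose within the treated samples. An exact permutation test of 2 against 2 samples cannot go below p = 0.333, so none was run. The SE of a fold change is its absolute log2 value over the root of the F statistic. CPM uses the TMM library sizes, and correlations use log2 CPM with a prior count of 2. Exon lengths, GC content and overlaps came from GENCODE release 44 on GRCh37, and promoter windows from RefSeq on GRCh38.p14.

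The members and lists were chosen with earlier results of these data known. All members are named. Of each other list the text names the called genes with the largest changes, up to 3 in each direction, at 0.5 μM against C2 and in treated against untreated samples. CCL2, CSF3, CXCR1, CXCR2, IL6ST, CASP1 and NLRP3 and the markers are given for their levels, calls or role, chosen after their values were seen. For each member the 3 genes with the highest Pearson r over the 12 samples are named, out of those with a symbol and a mean of at least 5 CPM.

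The alternatives were RLE normalization, a filter that drops only genes without a count, one at a mean count of 10, estimation that is not robust, DESeq2 1.42.0, the replicate number as a block, offsets for GC content and length (known for 88.2% of tested genes), the samples of a comparison alone, 2 other fits of treated against untreated, levels per kilobase of the longest transcript, and each sample left out in turn. The comparison of 0.5 with 0.0005 μM was added after the counts were seen. The procedures were tested on simulated data.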

Additional observations from a re-analysis of the deposited data

Results flagged for a closer look

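For 6 of the 10 members the change from C2 differed between the lowest and the highest dose by a test of the difference itself, which is the comparison of 0.5 with 0.0005 μM since both changes have C2 as their base (edgeR's quasi-likelihood test, Benjamini-Hochberg adjusted over all genes). Of all genes tested, 0.412% were called in this comparison and 0.337% were lower. The comparison was added after the counts were seen. The difference was -2.45 on the log2 scale for IL1B (adjusted p = 0.000387), -1.50 for CXCL1 (adjusted p = 0.00723), -1.50 for CXCL2 (adjusted p = 0.0145), -1.44 for CXCL3 (adjusted p = 0.00639), -1.29 for IL6 (adjusted p = 0.00438) and -1.29 for CSF2 (adjusted p = 0.0481). All 6 were lower in both samples at 0.5 μM than in both at 0.0005 μM. IL1B kept its call with each sample left out in turn, whereas the other 5 lost theirs when a sample of either dose was left out.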

How the results depend on the processing

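The 8 calls of the dose trend were kept under each of its 15 alternatives. Counts of members called against C2 moved more, and they are given here in the order 0.0005, 0.005, 0.05 and 0.5 μM, where the counts of the report are 5, 3, 1 and 0. Without a filter beyond 1 count they were 8, 5, 3 and 4, and in fits of the 4 samples of a comparison alone 8, 6, 4 and 4. DESeq2 gave 6, 4, 2 and 3, offsets for GC content and length 6, 5, 2 and 3, and RLE normalization 5, 3, 1 and 1. C2 against C1 gave 0 members instead of 6 in a fit of its 4 samples, where 0 genes of any kind were called and 9 members had an unadjusted p under 0.05. It gave 9 with DESeq2, with IL11 lower among them, 8 without a filter and 8 with the offsets. Leaving out each sample in turn gave 4 to 8, 0 to 7, 0 to 5 and 0 to 4 members against C2, 5 to 9 for C2 against C1, 1 to 8 for 0.5 against 0.0005 μM and 2 to 8 for treated against untreated. There a lone sample is assumed to vary like the other groups. Treated against untreated gave 2 instead of 6 without a filter and 2 against the untreated samples of day 4 alone, and 9 as a contrast in the model of 6 conditions. The cause of these differences was not tested.

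Counts over all genes also differed. DESeq2, no filter and the 4 samples alone called 1173, 1480 and 2624 genes at 0.0005 μM instead of 592, 1362, 1909 and 2592 at 0.005 μM instead of 827, 274, 390 and 0 for C2 against C1 instead of 82, and 592, 895 and 1662 for 0.5 against 0.0005 μM instead of 104. Without a filter and in its 4 samples alone 0.5 μM gave 2807 and 2578 instead of 1596. Offsets for GC content and length gave 1236, 1423 and 2564 genes at 0.0005, 0.005 and 0.5 μM, 229 for C2 against C1 and 394 for 0.5 against 0.0005 μM. Treated against the untreated samples of day 4 called 3408 genes instead of 6155, and the dose trend 1635 with DESeq2, 1459 without a filter and 1478 with the offsets instead of 773. Leaving out 1 sample gave 144 to 2552, 85 to 3316, 321 to 4843 and 129 to 5046 genes at the 4 doses, 47 to 2682 for C2 against C1, 6 to 1412 for 0.5 against 0.0005 μM and 123 to 990 for the dose trend.

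The labels give replicates 1 and 2 in each condition, but nothing says what the numbers share. Deviations of same-numbered samples from their condition means correlated at -0.596 to 0.698 over 15 pairs of conditions, above 0.1 in 8, so the numbers were not taken to pair the samples. With the replicate number as a block the counts of members against C2 were 5, 3, 1 and 2, treated against untreated gave 2 instead of 6 (CXCL1, CXCL3, IL1B and IL6 were not called, with adjusted p = 0.0529 to 0.0716), and the other counts were as before at 6 for C2 against C1, 6 for 0.5 against 0.0005 μM and 8 for the dose trend, whose count over all genes was 420.

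Of 1560 alternative values of single members, 1359 kept direction and side of the threshold, 84 lost the call, 101 gained it and 16 changed sign, 0 of these where the value was called. With GC and length offsets LIF at 0.005 μM against C2 was 0.022 instead of -0.12, and IL11 at 0.5 against 0.0005 μM 0.11 instead of -0.016. The other changes of sign came from leaving out 1 sample, over which the values at 0.005 μM against C2 ran from -0.0059 to 0.18 for CXCL2 and from -0.083 to 0.23 for CSF2. At 0.05 μM they ran from -0.17 to 0.28 for CXCL8 and from -0.12 to 0.24 for IL6, and at 0.5 μM from -0.090 to 0.041 for CXCL1, from -0.24 to 0.019 for CXCL3 and from -0.39 to 0.057 for CXCL8. IL11 ran from -0.088 to 0.052 in 0.5 against 0.0005 μM and from -0.011 to 0.048 in the dose trend. The longest transcript in place of all exons moved IL1B at 0.0005 μM from 21.9 to 40.8 CPM per kilobase. The lowest count of a member in a sample was 98, and each condition had 2 samples; their parts in the error were not separated.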
